A study of Mus musculus with 12 samples.

Results

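The genes described here are members of the BCL2 family, the apoptosome scaffold and 2 caspases: Apaf1, Bcl2l11, Casp9, Casp12, Bak1, Bax, Bid, Bcl2l1 and Bcl2. They were chosen by name, and probe sets were matched through the platform's gene symbols and older aliases. Earlier results of these data were known when they and the gene lists below were chosen, so counts of calls are descriptions. Of the 9 genes, 8 were matched, through 26 of the 45101 probe sets on the array, and Bax was not analysed here. All 8 passed the filter on low signal and were tested among 13628 genes. Of the 26 probe sets, 22 passed.

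Olfactory epithelium was taken from male wild-type C57BL/6J mice aged 6 weeks, and RNA was measured on 12 one-colour arrays, with 3 biological replicates in each of 4 groups. The groups were Lip-C OBX, Lip-O OBX, Lip-C sham and Lip-O sham. Lip-C is liposomes loaded with clodronate, given to deplete macrophages of the epithelium and a subset of blood monocytes, and Lip-O is empty liposomes. Every mouse received 50 µl into the nose on each of 3 days and 200 µl into a tail vein on 2 of those days, so all groups share the liposome load and the anaesthesia. OBX is bilateral removal of the olfactory bulb, done on the second day, and sham mice had a sham operation. All tissue was collected 48 h after surgery. The labels do not say whether an array holds RNA of 1 mouse or a pool, so p-values measure the spread between these samples.

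In the mitochondrial route of programmed cell death, BH3-only proteins such as Bcl2l11 (Bim) and Bid carry a death signal to mitochondria. The effectors Bak1 and Bax open the outer membrane, and the guardians Bcl2 and Bcl2l1 (Bcl-x) hold them back. Released cytochrome c binds Apaf1, which assembles into the apoptosome and activates the initiator Casp9. Casp12 lies outside that route. It belongs to the inflammatory caspases and in mice is found at the endoplasmic reticulum, where it has been linked to death after stress of that compartment. Cutting the axons of olfactory sensory neurons by removal of the bulb is a classical trigger of synchronous apoptosis in this tissue.

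The sequences upstream of the 3 genes that OBX changed under both liposome treatments are shown here because these genes moved on the same arrays, 2 of them upward and 1 downward. Each is the 250 bases before the annotated start in RefSeq's table for GRCm38.p6, read 5′ to 3′ on the gene's strand. The Apaf1 stretch is chr10:91082744-91082993, minus strand, the Bcl2l11 stretch (the outer of 2 annotated starts) is chr2:128125788-128126037, plus strand, and the Casp12 stretch is chr9:5345226-5345475, plus strand. Capitals mark matches on either strand to the motifs searched.
Apaf1: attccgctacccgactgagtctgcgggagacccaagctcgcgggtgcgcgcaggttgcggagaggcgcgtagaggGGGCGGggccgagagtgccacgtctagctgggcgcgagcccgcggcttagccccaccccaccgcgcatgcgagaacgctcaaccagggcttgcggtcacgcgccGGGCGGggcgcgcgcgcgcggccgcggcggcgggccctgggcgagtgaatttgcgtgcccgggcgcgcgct
Bcl2l11: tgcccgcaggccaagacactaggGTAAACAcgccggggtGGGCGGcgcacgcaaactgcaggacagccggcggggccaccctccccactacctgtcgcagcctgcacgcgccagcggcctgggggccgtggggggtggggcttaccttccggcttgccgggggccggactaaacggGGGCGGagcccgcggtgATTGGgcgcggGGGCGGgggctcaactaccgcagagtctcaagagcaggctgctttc
Casp12: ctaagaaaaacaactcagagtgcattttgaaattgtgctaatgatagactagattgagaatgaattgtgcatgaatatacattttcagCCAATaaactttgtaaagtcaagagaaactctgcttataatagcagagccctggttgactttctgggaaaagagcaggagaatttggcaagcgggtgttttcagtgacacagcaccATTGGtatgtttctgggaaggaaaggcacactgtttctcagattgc
Both strands were searched for the SP1 motif GGGCGG, the CCAAT box, the FOXO motif GTAAACA, the E2F motifs TTGGCGC or else TTCCCGC, the AP-1 motif TGAGTCA, the TATA box as TATAAA, and the core of the cyclic AMP response element as TGACGT, and no matches overlapped in these windows. GGGCGG occurred 2 times before Apaf1, 3 times before Bcl2l11 and 0 times before Casp12, and 32.7% of all 32851 windows of this length hold it. Bcl2l11 also held 1 GTAAACA, a motif present in 3.17% of windows, starting 227 bases before the start. CCAAT, found in 33.8% of windows, occurred 1 time before Bcl2l11 and 2 times before Casp12. The G and C content was 75.6% for Apaf1, 72.0% for Bcl2l11 and 39.2% for Casp12, against a median of 52.4% over all windows. The remaining motifs, held by 1.97% (TTGGCGC), 3.82% (TTCCCGC), 4.46% (TGAGTCA), 12.4% (TATAAA) and 6.47% (TGACGT) of windows, had no match in these 3, and a match describes letters and not binding.

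Arrays of the same group correlated at 0.970 to 0.987 across genes. On the first principal component (32.9% of the variance), OBX arrays scored 2.75 to 27.2 and sham arrays -27.6 to -8.92, and the OBX arrays nearest to sham were replicate 3 of the Lip-C mice (2.75) and replicate 3 of the Lip-O mice (10.5). Defining markers of the labelled tissue were present. Omp of mature olfactory sensory neurons had a signal of 16900 ± 1170 and Cyp2g1 of sustentacular cells 16200 ± 931 in Lip-O sham mice (SD, n = 3). All signals are intensities on a linear scale that the authors had set to a common level per array. Changes are differences of log2(signal + 16) ± the standard error of the limma model, and understate the change of dim genes. A call means an adjusted p (Benjamini-Hochberg over all genes) under 0.05.

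After OBX in Lip-O mice, Bcl2l11, Bid and Casp12 rose and Apaf1 fell, while Casp9, Bak1, Bcl2l1 and Bcl2 did not pass. These 4 called members of 8 stand beside 19.6% of all genes called in this comparison, a description and no test of an excess. For the same 4, OBX and sham arrays were fully apart, which held for 37.7% of all genes. The median change of the 8 was 0.13, against 0.05 over all genes.

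Bcl2l11, the BH3-only protein that binds all guardians of the family, had signals of 2019.0, 2128.6 and 2258.6 in Lip-O OBX mice, against 1449.3, 1429.8 and 1223.5 in Lip-O sham mice. The lowest OBX array lay well above the highest sham array. The change was 0.64 ± 0.10, or 1.56-fold (limma adjusted p = 0.00256). All 5 probe sets of Bcl2l11 passed the filter and all had positive changes, and 3 of them were called when every probe set was tested (0.41 to 0.64), of which the dimmer pair lost the call without any 1 of 3 and any 1 of 4 arrays (highest adjusted p = 0.0698 and 0.0949). The 2 probe sets short of the threshold had changes of 0.11 ± 0.20 and 0.34 ± 0.18. Bulk RNA cannot separate a change of transcripts per cell from a change in the share of cells that carry them, here or in any result below.

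Bid, the BH3-only protein that caspase-8 cleaves to connect death receptors with mitochondria, had signals of 500.2, 368.8 and 297.5 in Lip-O OBX mice, against 241.9, 225.8 and 161.4 in Lip-O sham mice. The OBX arrays spread widely and replicate 1 was highest, yet all 3 exceeded every sham array. The change was 0.83 ± 0.18 (limma adjusted p = 0.0114). The second kept probe set of Bid gave 0.25 ± 0.26. With the mean of both probe sets the change was 0.54 (adjusted p = 0.0942), and with only the 6 arrays compared it was 0.83 (adjusted p = 0.0606).

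Casp12 had signals of 243.1, 212.6 and 209.3 in Lip-O OBX mice, against 119.5, 129.4 and 115.3 in Lip-O sham mice. The groups were far apart relative to their spread, and the change was 0.79 ± 0.10, or 1.73-fold (limma adjusted p = 0.00134). Its other probe set differed by 0.52 ± 0.22 without passing (adjusted p = 0.132 over probe sets).

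Apaf1 went the other way. The scaffold of the apoptosome had signals of 514.8, 570.6 and 468.5 in Lip-O OBX mice, against 802.1, 852.9 and 826.7 in Lip-O sham mice, with no overlap. It fell by 0.66 on the log2 scale (standard error 0.09), 1.58-fold lower (limma adjusted p = 0.00157). Its second probe set, with 188.6, 209.1 and 156.6 in Lip-O OBX mice against 372.0, 413.5 and 346.6 in Lip-O sham mice, changed by -0.98 ± 0.14 (adjusted p = 0.00258 over probe sets).

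The other 4 members stayed within the spread or short of the threshold after OBX in Lip-O mice. The pore-forming effector Bak1 had 117.2, 116.6 and 114.7 in Lip-O OBX mice, against 130.2, 108.4 and 106.7 in Lip-O sham mice, a change of 0.02 with a 95% interval of -0.18 to 0.21. Casp9, the initiator caspase of the apoptosome, had 606.7, 504.0 and 472.8 in Lip-O OBX mice, against 452.3, 533.9 and 407.4 in Lip-O sham mice, a change of 0.18 (-0.07 to 0.43). The guardian Bcl2 differed by 0.05 (-0.23 to 0.34) and Bcl2l1 by 0.08 (-0.13 to 0.29). By brightest probe set, the intervals of Bak1, Bcl2 and Bcl2l1 reach no further than 0.34 in either direction and that of Casp9 reaches 0.43. The called members differed by 0.64 to 0.83 in size. All 5 kept probe sets of Bcl2 had positive changes and none was called. Dimmer ones whose groups did not overlap gave 0.27 ± 0.10 and 0.27 ± 0.14 (adjusted p = 0.101 and 0.195 over probe sets). Bcl2l1 was uneven between probe sets. Its dimmest kept probe set had 293.2, 281.3 and 289.3 in Lip-O OBX mice against 351.4, 385.1 and 430.3 in Lip-O sham mice and fell by 0.41 (standard error 0.11, adjusted p = 0.0293 over probe sets), a call lost without any 1 of 5 arrays (highest adjusted p = 0.103, without Lip-O sham replicate 3).

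**Figure D1:**
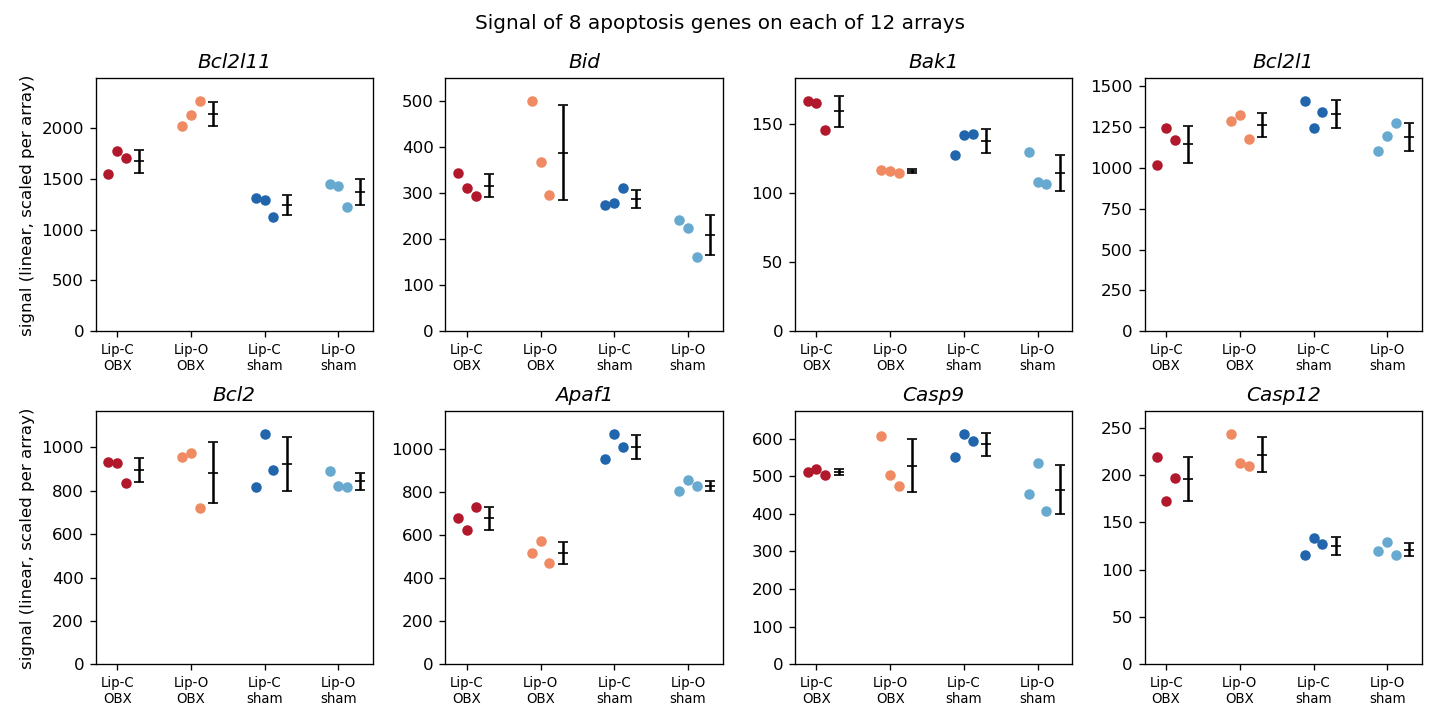
Signal (linear, scaled per array) of the brightest probe set of 8 cell death genes on each of the 12 arrays, with mean and SD of 3 arrays beside the points. Apaf1 lies lower and Bcl2l11 and Casp12 lie higher on all OBX arrays than on all sham arrays of the same liposome treatment, and Bid separates in Lip-O mice, with 297.5 to 500.2 after OBX against 161.4 to 241.9 after sham surgery.

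After OBX in Lip-C mice, Bcl2l11 and Casp12 again rose and Apaf1 fell, and no other member passed. These 3 called members of 8 stand beside 19.2% of all genes called. Groups did not overlap for 6 members, which adds Casp9, Bak1 and Bcl2l1 to the 3, while 40.2% of all genes had such groups. The median change of the 8 was 0.05, against 0.04 over all genes.

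Bcl2l11 had signals of 1546.7, 1766.9 and 1703.8 in Lip-C OBX mice, against 1307.5, 1285.8 and 1125.9 in Lip-C sham mice. The change was 0.43 ± 0.10 (limma adjusted p = 0.0155), and the adjusted p was 0.0606 without Lip-C OBX replicate 2 and 0.0576 without Lip-C sham replicate 3. Its 5 probe sets all had positive changes (0.20 to 0.61), of which only the brightest was called over probe sets, a call lost without any 1 of 4 arrays (highest adjusted p = 0.0833).

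Casp12 had signals of 219.4, 172.2 and 196.7 in Lip-C OBX mice, against 115.2, 133.7 and 126.8 in Lip-C sham mice, with a clear gap. The change was 0.58 ± 0.10, or 1.5-fold (limma adjusted p = 0.00648), and its other probe set differed by 0.54 ± 0.22 (adjusted p = 0.127 over probe sets).

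Apaf1 had signals of 677.2, 625.4 and 729.7 in Lip-C OBX mice, against 953.7, 1066.6 and 1008.7 in Lip-C sham mice, again with no overlap. It fell by 0.57 on the log2 scale (standard error 0.09, limma adjusted p = 0.00526), and its second probe set differed by -0.58 ± 0.14 (adjusted p = 0.0262 over probe sets), which lost the call without any 1 of 4 arrays (highest adjusted p = 0.0911, without Lip-C sham replicate 2).

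Bid had signals of 344.6, 312.2 and 294.2 in Lip-C OBX mice, against 275.4, 279.7 and 310.8 in Lip-C sham mice. These ranges overlap, and the change was 0.13 with a 95% interval of -0.27 to 0.53. Its second kept probe set had 76.1, 89.5 and 54.7 in Lip-C OBX mice, against 118.2, 128.0 and 131.1 in Lip-C sham mice. Those groups did not overlap, and the difference of -0.68 ± 0.26 has the opposite sign and did not pass (adjusted p = 0.104 over probe sets). Bak1 differed by 0.19 (-0.01 to 0.38), Casp9 by -0.19 (-0.44 to 0.06), Bcl2l1 by -0.22 (-0.43 to -0.01) and Bcl2 by -0.04 (-0.32 to 0.24), none of them past the threshold. All 5 kept probe sets of Bcl2 had negative changes and none was called. A dimmer one gave -0.27 ± 0.10 with overlapping groups (adjusted p = 0.104 over probe sets).

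Whether OBX acted differently under the 2 liposome treatments was tested as the interaction, the OBX change in Lip-C mice minus that in Lip-O mice. None of the 8 members passed it in limma and 0 of all genes did (0%). At an unadjusted p under 0.05 there were 3 members, Bid, Casp9 and Bcl2l1, beside 17.6% of all genes, and the model without moderation also called 0 members, with 3 at an unadjusted p under 0.05. By brightest probe set, Bid had the largest interaction of the 8, -0.70 ± 0.26 with a 95% interval of -1.27 to -0.14 (adjusted p = 0.194). Its second probe set gave -0.94 ± 0.37 (adjusted p = 0.212 over probe sets). The call of Bid in Lip-O mice and its lack in Lip-C mice is therefore no difference past the threshold. Casp9 had an interaction of -0.37 ± 0.16 (adjusted p = 0.264) and Bcl2l1 of -0.30 ± 0.13 (adjusted p = 0.277). Other kept probe sets of both had the opposite sign, 0.22 ± 0.36 for Casp9 (adjusted p = 0.793 over probe sets) and 0.40 ± 0.16 for the dimmest of Bcl2l1 (adjusted p = 0.211 over probe sets), while the remaining one of Bcl2l1 gave -0.31 ± 0.15. All 5 kept probe sets of Bcl2 had negative interactions and none was called. The brightest gave -0.09 ± 0.18 and a dimmer one -0.54 ± 0.14 (adjusted p = 0.106 over probe sets). For Apaf1 the interaction was 0.10 (-0.18 to 0.38), for Bcl2l11 -0.21 (-0.51 to 0.09) and for Casp12 -0.21 (-0.52 to 0.10). Averaged over both liposome treatments, OBX changed Apaf1 by -0.61 ± 0.06, Bcl2l11 by 0.53 ± 0.07, Casp12 by 0.69 ± 0.07 and Bid by 0.48 ± 0.13 (limma adjusted p = 0.000262, 0.00055, 0.000256 and 0.0166), 4 called members of 8 beside 32.7% of all genes. With the mean of both Bid probe sets that value was 0.13 (adjusted p = 0.526).

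**Figure D2:**
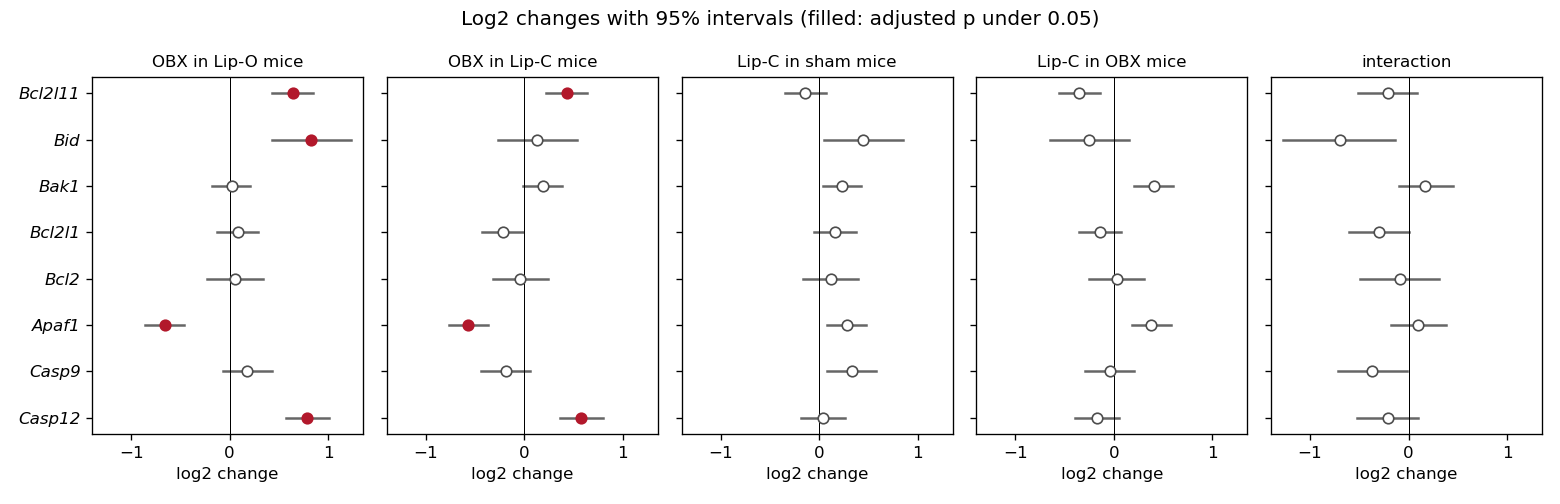
Log2 changes of 8 cell death genes with 95% intervals from the limma model in the 4 pairwise comparisons and the interaction, with filled points for an adjusted p under 0.05. The filled points are Bcl2l11, Bid, Casp12 and Apaf1 for OBX in Lip-O mice and Bcl2l11, Casp12 and Apaf1 for OBX in Lip-C mice, and the Lip-C and interaction panels hold none.

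Cell markers moved on the same arrays. Their counts stand beside 19.6% of all genes called after OBX in Lip-O mice and 19.2% in Lip-C mice. Of 13 measured markers of mature neurons, 11 fell after OBX in Lip-O mice and 8 in Lip-C mice, with median changes of -0.99 and -0.57 and none rising. Their summed signal was 50569 to 83004 in Lip-O OBX mice against 103261 to 117117 in Lip-O sham mice, and 73517 to 91101 in Lip-C OBX mice against 110008 to 118655 in Lip-C sham mice. Of 16 macrophage markers, 6 rose after OBX in Lip-O mice and 8 in Lip-C mice. The median changes of the 16 were 0.49 and 0.63. Their summed signal was 16270 to 28712 in Lip-O OBX mice against 11127 to 21650 in Lip-O sham mice, and 16351 to 21909 in Lip-C OBX mice against 10026 to 15802 in Lip-C sham mice. Lyz2, the brightest of them and called in neither comparison, weighs most in these sums (8220 ± 2380 in Lip-O OBX mice and 6090 ± 1900 in Lip-O sham mice). Of 7 markers of horizontal basal cells, the resting stem cells of the tissue, 3 rose after OBX in Lip-O mice and 4 after OBX in Lip-C mice. Of 10 markers of sustentacular cells, the supporting cells, 3 rose in each. Of 6 markers of neuronal precursors, 2 rose in Lip-O mice and 1 fell in Lip-C mice. Of 10 markers of immature neurons, 1 rose in Lip-O mice and 2 fell in Lip-C mice. No marker in these lists was at 0 throughout a group, and the part of cell composition in the changes of Apaf1, Bcl2l11, Casp12 and Bid was not tested. In both OBX groups replicate 3 had the highest neuron marker sum, 91101 in Lip-C OBX mice and 83004 in Lip-O OBX mice. In Lip-C OBX mice that array had the highest Apaf1 (729.7) and the lowest Bid (294.2) of its group, and Bcl2l11 (1703.8) and Casp12 (196.7) between the other arrays. In Lip-O OBX mice it had the lowest Apaf1 (468.5), Casp12 (209.3) and Bid (297.5) and the highest Bcl2l11 (2258.6). Leaving out either array did not change the number of members called in its OBX comparison, 3 in Lip-C mice and 4 in Lip-O mice.

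**Figure D3:**
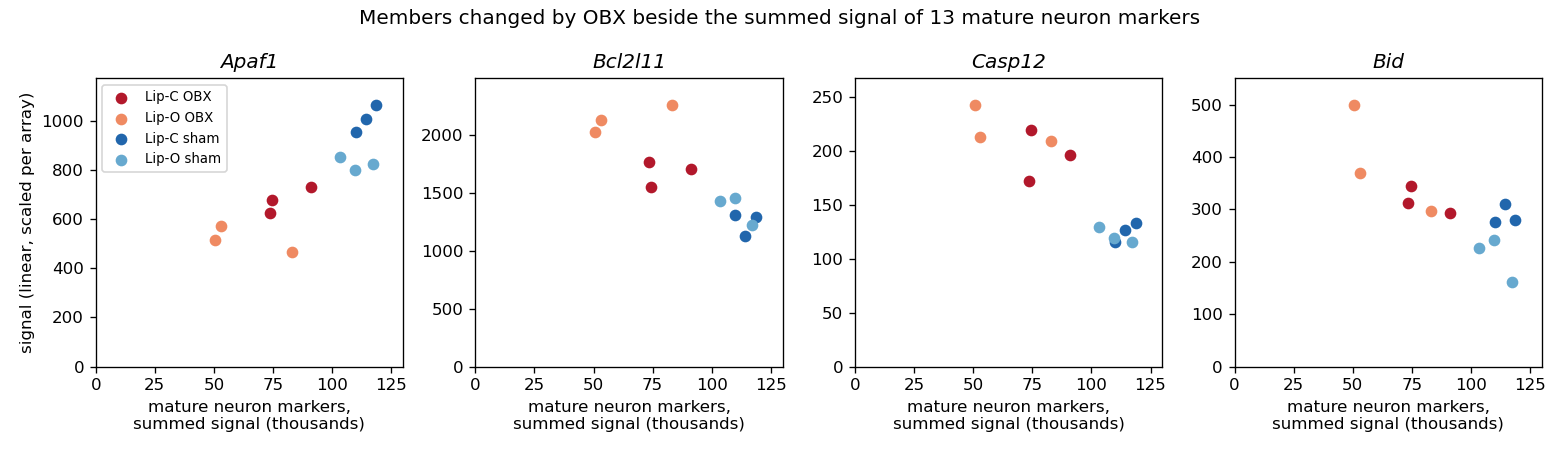
Signal of Apaf1, Bcl2l11, Casp12 and Bid (linear, scaled per array) on each of 12 arrays against the summed signal of 13 mature neuron markers (scale as on the axis label). OBX arrays have sums of 50569 to 91101 and sham arrays 103261 to 118655, and Lip-O OBX replicate 3 pairs a sum of 83004 with the lowest Apaf1 signal of all arrays (468.5).

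The Lip-C comparisons asked whether clodronate changed these genes at a given surgery. In sham mice 0 of 8 members passed in limma, beside 2.10% of all genes, and 4 had an unadjusted p under 0.05 (Apaf1, Casp9, Bak1 and Bid, each higher by its brightest probe set), beside 21.9% of all genes. Groups did not overlap for Apaf1, Casp9 and Bid, 3 of 8, as for 29.6% of all genes. The model without moderation called 0 members, with 3 at an unadjusted p under 0.05. Apaf1 differed by 0.28 ± 0.09 (953.7, 1066.6 and 1008.7 in Lip-C sham mice against 802.1, 852.9 and 826.7 in Lip-O sham mice, adjusted p = 0.111). Casp9 differed by 0.33 ± 0.11 (551.6, 611.0 and 593.7 in Lip-C sham mice against 452.3, 533.9 and 407.4 in Lip-O sham mice, adjusted p = 0.128). Bid differed by 0.45 ± 0.18 (adjusted p = 0.184). The second kept probe sets gave -0.20 ± 0.14 for Apaf1 and -0.23 ± 0.25 for Casp9, opposite in sign, and 0.33 ± 0.26 for Bid, and Bak1 has no second one. Bcl2l11 and Casp12 were at -0.14 (-0.35 to 0.07) and 0.04 (-0.18 to 0.26).

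Bcl2 showed a split between its probe sets under Lip-C in sham mice. The brightest had 818.5, 1059.6 and 894.9 in Lip-C sham mice, against 889.0, 821.1 and 819.1 in Lip-O sham mice, a difference of 0.12 ± 0.13. A dimmer probe set, of a kind whose probes can also match other transcripts, had 234.7, 256.4 and 276.4 in Lip-C sham mice, against 144.1, 159.5 and 166.8 in Lip-O sham mice, and rose by 0.65 ± 0.10 (adjusted p = 0.0104 over probe sets). This call was lost without Lip-C sham replicate 3 (adjusted p = 0.0527). The dimmest probe set of Bcl2 had 174.3, 169.9 and 140.8 in Lip-C sham mice, against 94.0, 125.7 and 92.6 in Lip-O sham mice, a rise of 0.57 ± 0.14 (adjusted p = 0.0428 over probe sets) that was lost without any 1 of 9 arrays (highest adjusted p = 0.124). All 5 kept probe sets of Bcl2 had positive differences, and only these 2 passed.

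After OBX, 0 of 8 members differed between Lip-C and Lip-O mice in limma, beside 0.345% of all genes, and 3 had an unadjusted p under 0.05 (Apaf1 and Bak1 higher, Bcl2l11 lower), beside 12.7% of all genes. The model without moderation called 0 members, with 3 at an unadjusted p under 0.05. Groups did not overlap for these 3 of 8 members, as for 2185 of all 13628 genes. Bak1 had 166.7, 165.4 and 146.1 in Lip-C OBX mice, against 117.2, 116.6 and 114.7 in Lip-O OBX mice. The difference was 0.41 ± 0.09 (limma adjusted p = 0.102). Apaf1 had 677.2, 625.4 and 729.7 in Lip-C OBX mice, against 514.8, 570.6 and 468.5 in Lip-O OBX mice, a difference of 0.38 ± 0.09 (adjusted p = 0.121). Its second probe set gave 0.19 ± 0.14 with overlapping groups (adjusted p = 0.645 over probe sets). Bcl2l11 had 1546.7, 1766.9 and 1703.8 in Lip-C OBX mice, against 2019.0, 2128.6 and 2258.6 in Lip-O OBX mice, a difference of -0.35 ± 0.10 (adjusted p = 0.161). All 5 probe sets of Bcl2l11 were lower in Lip-C mice in both surgeries (-0.17 to -0.38 after OBX and -0.14 to -0.63 in sham mice), none past the threshold. Bid differed after OBX by -0.25 ± 0.18, and its second kept probe set by -0.61 ± 0.26 (adjusted p = 0.397 over probe sets). All 13 mature neuron markers had positive differences after OBX (median 0.31, 0 called in limma and 5 at an unadjusted p under 0.05), with summed signals of 73517 to 91101 in Lip-C OBX mice against 50569 to 83004 in Lip-O OBX mice, and their part in these differences was not tested. Markers of the depleted cells and of other blood cells are given for the same comparisons. Over all genes 2.10% were called with Lip-C in sham mice and 0.345% in OBX mice. At an unadjusted p under 0.05 in limma these shares were 21.9% and 12.7%. Of 16 macrophage markers, 2 fell with Lip-C in sham mice and 0 passed in OBX mice (1 at an unadjusted p under 0.05 in limma). Of 7 neutrophil markers 0 passed in limma in sham or OBX mice, with 3 and 6 at an unadjusted p under 0.05 and median differences of 1.31 and 1.46. The summed neutrophil signal was 32059 to 47894 in Lip-C sham mice against 28509 to 37960 in Lip-O sham mice, and 34393 to 59173 in Lip-C OBX mice against 28854 to 32519 in Lip-O OBX mice. Of 6 markers of neuronal precursors, 3 fell with Lip-C in sham mice and 4 in OBX mice. The part of these cells in the values of Apaf1, Bak1 and Bcl2l11 was not tested.

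Averaged over surgery, Apaf1 rose with Lip-C by 0.33 ± 0.06 (limma adjusted p = 0.0363) and Bak1 by 0.32 ± 0.06 (limma adjusted p = 0.0368), 2 of 8 members beside 1.59% of all genes. Both calls were fragile. Apaf1 lost it without any 1 of 8 arrays (highest adjusted p = 0.0832, without Lip-C sham replicate 3) and Bak1 without any 1 of 9 (highest adjusted p = 0.0899, without the same array). The second probe set of Apaf1 differed by -0.01 (adjusted p = 0.982 over probe sets), and with the mean of both the Apaf1 value was 0.16 (adjusted p = 0.33). Bak1 has 1 kept probe set and no such check. Bcl2 was again split: its brightest probe set differed by 0.08 ± 0.09 and was not called. Of its 5 kept probe sets 1 was called higher (adjusted p = 0.0272 over probe sets). It was the dimmer one whose probes can also match other transcripts, and 7 of the leave-one-out fits lost this call.

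**Figure D4:**
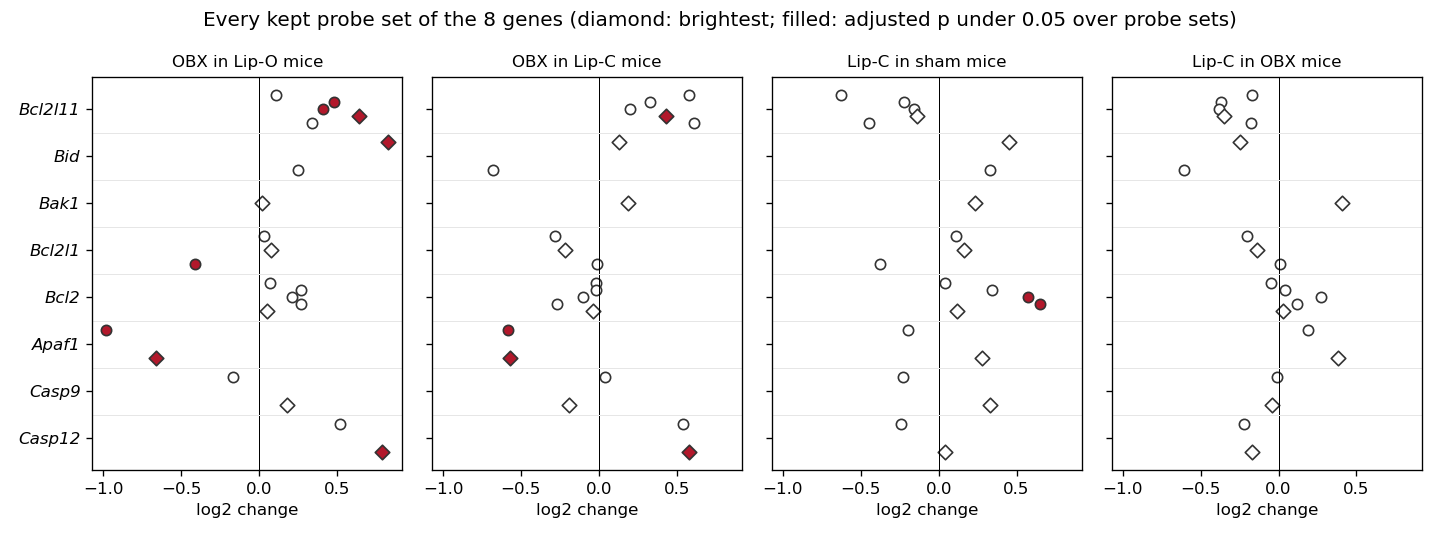
Log2 change of each of the 22 kept probe sets of 8 cell death genes in the 4 pairwise comparisons, with diamonds for the brightest probe set of a gene and filled points for an adjusted p under 0.05 over all probe sets. The 5 Bcl2l11 probe sets lie above 0 in both OBX panels and below 0 in both Lip-C panels, while Bid and Bcl2l1 have probe sets that lie apart.

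The 12 arrays also gave the pattern of each called member across all conditions, described by Pearson's r of log2 values with the other genes. The points share their OBX grouping and the scale of each array, so r is a description. Bcl2l11 and Apaf1 ran opposite to each other (r = -0.941), Bcl2l11 and Casp12 ran together (r = 0.846), and Apaf1 and Casp12 ran opposite (r = -0.838). Bid was nearest to Casp12 among the members (r = 0.772). Bcl2 and Bcl2l1 stayed within 0.285 of 0 against Apaf1, Bcl2l11 and Casp12. The genes most like Apaf1 were Rassf4 (0.976), Add2 (0.975) and Abhd17a (0.968), and S100a16 was most opposite (-0.975). Those most like Bcl2l11 were Gadd45a (0.961), a growth arrest and DNA damage gene, Esrp2 (0.951), an epithelial splicing regulator, and Cwh43 (0.948), with Dlg1 most opposite (-0.943). Casp12 was followed most closely by Garem1 (0.964), Ptprf (0.962) and Parva (0.959), with Mettl23 opposite (-0.970). Bid was followed by Apoc1 (0.964), Galnt6 (0.956) and Srd5a3 (0.944), with Sema3e opposite (-0.961), and Bak1 by Ccno (0.880), Chac1 (0.867) and F13a1 (0.865), with Klhl7 opposite (-0.886).

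The wider death machinery was described through 10 lists of related genes with 74 measured members. After OBX, 5 rose and 3 fell in Lip-O mice, beside 19.6% of all genes called, and 4 rose and 4 fell in Lip-C mice, beside 19.2%. Among 6 measured caspases other than Casp9 and Casp12, Casp8 rose and Casp6 fell after OBX in Lip-O mice. Casp8, the initiator downstream of death receptors that cleaves Bid, had a signal of 739 ± 40.9 in Lip-O OBX mice against 469 ± 43.3 in Lip-O sham mice (SD, n = 3), a change of 0.64 ± 0.13 (limma adjusted p = 0.00732). In Lip-C mice, with 688 ± 95.8 in Lip-C OBX mice against 509 ± 71.9 in Lip-C sham mice, it rose by 0.42 ± 0.13 (limma adjusted p = 0.0405), a call lost without any 1 of 6 arrays. Casp6, an executioner caspase, had 2280 ± 75.9 in Lip-O OBX mice against 2780 ± 63.9 in Lip-O sham mice, a change of -0.28 ± 0.07 (limma adjusted p = 0.0154, and 0.0544 without Lip-O sham replicate 2). Casp1, Casp4, Casp2 and Casp14 did not pass in either surgery comparison.

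Of 10 other pro-apoptotic BCL2 family genes, 1 rose and 1 fell after OBX in Lip-O mice. Bok, a relative of Bak1, had 644 ± 36.1 in Lip-O OBX mice against 937 ± 12.4 in Lip-O sham mice and fell by 0.53 (standard error 0.07, limma adjusted p = 0.00155), in every fit that left out 1 array. Bcl2l14 had 534 ± 24.9 in Lip-O OBX mice against 352 ± 25.0 in Lip-O sham mice, a rise of 0.58 ± 0.15 (limma adjusted p = 0.0252) lost without any 1 of 4 arrays. In Lip-C mice 1 of the 10 passed: Hrk, a BH3-only gene of neurons, fell by 0.82 (standard error 0.21, limma adjusted p = 0.024), with 986 ± 271 in Lip-C OBX mice against 1720 ± 231 in Lip-C sham mice, and lost the call without any 1 of 4 arrays. The BH3-only gene Bbc3 (Puma), a p53 target, differed by 0.30 ± 0.19 under Lip-O and -0.12 ± 0.19 under Lip-C without passing. Of 2 measured guardians beside Bcl2 and Bcl2l1, 0 passed in a pairwise OBX comparison in limma, with 1 (Bcl2l2) at an unadjusted p under 0.05 in each. Mcl1 differed by 0.20 ± 0.16 after OBX in Lip-O mice and by 0.22 ± 0.16 after OBX in Lip-C mice. Bcl2l2 (Bcl-w), a guardian of neurons, was called only in the average over liposomes (-0.28 ± 0.07, limma adjusted p = 0.0114).

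For the lists around mitochondria and caspases, calls stand beside 19.6% of all genes after OBX in Lip-O mice and 19.2% in Lip-C mice. Of 8 genes of mitochondrial release 0 passed after OBX in Lip-O mice in limma (1 at an unadjusted p under 0.05), and Htra2, a protease released with cytochrome c, rose in Lip-C mice by 0.45 ± 0.14 (limma adjusted p = 0.0479, lost without any 1 of 9 arrays). Cytochrome c itself, Cycs, differed by -0.20 ± 0.12 under Lip-O and 0.08 ± 0.12 under Lip-C. Averaged over its probe sets the Lip-O value of Cycs was -0.33 (adjusted p = 0.0289). Of 7 inhibitors of apoptosis 0 passed in Lip-O mice in limma (1 at an unadjusted p under 0.05), and Naip2 rose in Lip-C mice by 0.41 ± 0.12 (limma adjusted p = 0.04, lost without any 1 of 5 arrays). Xiap, which blocks Casp9 and executioner caspases, differed by 0.01 ± 0.07 under Lip-O and 0.05 ± 0.07 under Lip-C, and averaged over its probe sets the Lip-O value was -0.41 (adjusted p = 0.0151). Of 7 death receptors and adaptors 0 passed in limma (2 under Lip-O and 1 under Lip-C at an unadjusted p under 0.05), with a median of 0.17 in both, against 0.05 and 0.04 over all genes. Of 5 caspase substrates 0 passed in limma, with 1 under Lip-O and 0 under Lip-C at an unadjusted p under 0.05.

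Of 9 genes of the p53 pathway, Perp, a p53 target of epithelia, rose after OBX in Lip-O mice by 0.42 ± 0.10 (limma adjusted p = 0.0177, lost without Lip-O sham replicates 2 or 3), as did Mdm4 by 0.32 ± 0.10 (limma adjusted p = 0.0499, lost without any 1 of 10 arrays, adjusted p = 0.0535 with the replicate block, and at -0.13 when its probe sets were averaged). In Lip-C mice 0 of the 9 passed in limma, also at an unadjusted p under 0.05. Of 10 genes of endoplasmic reticulum stress, Eif2ak3, which encodes the sensor kinase PERK, rose in Lip-O mice by 0.27 ± 0.08 (limma adjusted p = 0.038, 0.0538 with the replicate block, lost without any 1 of 8 arrays). In Lip-C mice Xbp1 rose by 0.42 ± 0.13, while Atf6 fell by 0.36 and Trib3 fell by 0.51 (limma adjusted p = 0.0425, 0.0276 and 0.0488), calls lost without any 1 of 7, 4 and 10 arrays. Of 10 upstream factors and kinases, Map3k12 (DLK), the axon injury kinase upstream of JNK, fell by 0.58 in Lip-O mice (limma adjusted p = 0.0328, lost without any 1 of 4 arrays) and Mapk8 (JNK1) fell by 0.31 in Lip-C mice (limma adjusted p = 0.0221, lost without any 1 of 3 arrays). Between Lip-C and Lip-O mice 0 of the 74 passed in limma, beside 2.10% of all genes in sham mice and 0.345% in OBX mice. At an unadjusted p under 0.05 in limma there were 13 in sham mice and 3 in OBX mice, beside 21.9% and 12.7% of all genes.

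Averaged over liposomes, 13 of the 74 rose and 9 fell, beside 32.7% of all genes called. The following 10 had not passed in either pairwise comparison. Bmf rose by 0.40 and Bnip3 and Bad fell by 0.21 and 0.17 among pro-apoptotic genes. Aifm1 rose by 0.15 and Diablo fell by 0.19 among genes of mitochondrial release. Birc5, an inhibitor of apoptosis that also serves mitosis, rose by 0.61, the death receptor Tnfrsf1a by 0.35, the caspase-8 inhibitor Cflar by 0.24, and the transcription factor Mybl1 by 0.55. Mapk10 (JNK3), the neuronal JNK, fell by 0.65. Of these 10, Tnfrsf1a and Mapk10 kept the call in every fit that left out 1 array, and the others lost it in 5 to 11 of the 12 fits. With the mean of probe sets Bmf was at -0.01 and Cflar at 0.

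**Figure D5:**
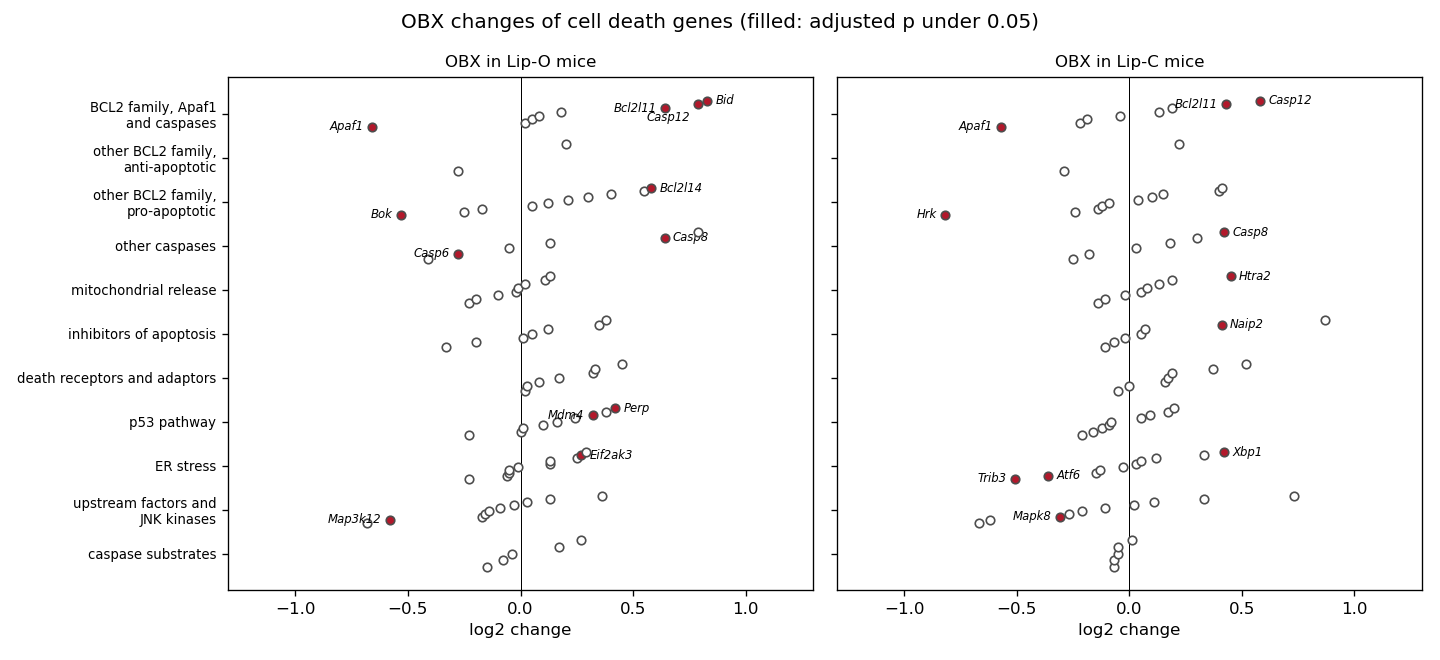
Log2 change after OBX in Lip-O mice (left) and Lip-C mice (right) of 8 cell death genes and of 10 lists of related genes, 1 point per gene, with filled, named points for a limma adjusted p under 0.05. In the top row Apaf1 (-0.66 and -0.57) is the only filled point below 0 in both panels.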

How the data were processed

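The members and all gene lists were chosen with earlier results of these data known. RNA of 12 samples was measured on one-colour arrays. The authors deposited 1 intensity per probe set and array, linear and already scaled: in the values, the mean after trimming 2% at each end was 500 throughout. Total RNA had been turned into biotinylated cRNA, per the labels' protocols. How probes were summarised is not stated in these sources.

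Signals were taken as log2(signal + 16) without further scaling. The 64 control probe sets were left out. Of the rest, 28986 lay above the 40th percentile of their array (65.3 to 79.3) on at least 3 arrays and were kept. Each gene was represented by its kept probe set with the highest mean among those annotated to 1 gene, giving 13628 genes. Symbols came from the platform annotation, and all 8 members matched the reference gene table by identifier.

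All 12 arrays entered a linear model of the 4 group means (limma 3.58.1, R 4.3.3, 8 residual degrees of freedom, 2.56 added by moderation). The 7 two-sided comparisons were OBX under each liposome, Lip-C under each surgery, their interaction and the average effect of each, with Benjamini-Hochberg adjustment and a call under 0.05. For 3 arrays against 3, the smallest exact permutation p is 0.1. Replicate numbers occur in all groups, and the labels do not say what they share. Same-numbered arrays deviated together at r over 0.1 in 3 of 3 pairs of Lip-O OBX with Lip-O sham. The same held for Lip-C sham with Lip-O sham (lowest r = 0.1003), and for the other pairs of groups it was 1 to 2 of 3. The main fit left the replicate number out, so its p-values use no pairing. The fit with the replicate number as a block was an alternative. A second fit tested every kept probe set. The model was also run on simulated data with independent noise. That run held no deviation shared by same-numbered arrays, so it does not cover one. All 8 members are named, with list genes past the threshold, the 3 genes most correlated with each called member and the 1 most opposite. Alternatives changed the pseudocount, filter, normalization, choice of probe set, variance model and samples. The number of arrays limits the precision, and standard errors of log2 changes had a median of 0.124.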

Additional observations from a re-analysis of the deposited data

How the results depend on the processing

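The 4 members called after OBX in Lip-O mice and the 4 called in the average over liposomes numbered 4 in each fit that left out 1 array. The 3 called after OBX in Lip-C mice became 2 to 3, and no member was called for Lip-C within sham mice, Lip-C within OBX mice or the interaction in any leave-one-out fit. The 2 members called for Lip-C averaged over surgery became 0 to 2 without single arrays, 0 with no filter on low signal, and 1 each with the filter at the 60th percentile, quantile normalization, the mean of probe sets and the mean-variance trend. At the 60th percentile Casp12 and Bak1 were not tested.

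Counts over all genes moved further. Without single arrays they ranged from 1403 to 2793 for OBX in Lip-O mice, 838 to 3030 for OBX in Lip-C mice, 17 to 314 for Lip-C in sham mice, 7 to 76 for Lip-C in OBX mice, 0 to 155 for the interaction, 3466 to 4679 for OBX averaged over liposomes and 84 to 258 for Lip-C averaged over surgery. The lowest counts came without Lip-O OBX replicate 1 for both comparisons of Lip-O OBX arrays, without Lip-C OBX replicate 1 for OBX in Lip-C mice and OBX averaged, and without Lip-C sham replicate 3 for Lip-C in sham mice and Lip-C averaged, and the 155 came without Lip-O OBX replicate 2. With every probe set tested there were 4890, 1449, 10, 7499 and 618 calls for OBX in Lip-O mice, Lip-C in sham mice, the interaction, OBX averaged over liposomes and Lip-C averaged over surgery. With no filter there were 1736, 56, 1 and 106 for OBX in Lip-C mice, Lip-C in sham mice, the interaction and Lip-C averaged over surgery. The filter at the 60th percentile gave 548, 72 and 85, and the mean-variance trend 591, 99 and 66, for Lip-C in sham mice, for Lip-C after OBX and for the interaction. The unmoderated linear model gave 7 for Lip-C in OBX mice and 126 for Lip-C averaged over surgery. With only the 6 arrays compared there were 1574, 79 and 2 for OBX in Lip-O mice, Lip-C in sham mice and Lip-C in OBX mice. The cause of these shifts was not tested.

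Averaging all probe sets per gene, OBX in Lip-O mice gave -0.41 for Xiap (adjusted p = 0.0151), -0.33 for Cycs (adjusted p = 0.0289) and -0.13 for Mdm4, and OBX averaged over liposomes gave -0.01 for Bmf and 0 for Cflar. Of 13 member calls 10 were kept in all leave-one-out fits, and of 38 calls of related genes 13.

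Deviations of same-numbered arrays of different groups had a median r of 0.128 (-0.028 to 0.327, 18 pairs), against -0.089 for arrays of other numbers (36 pairs). Deviations were taken from each group's mean, so both kinds of pairs must balance. The negative median is therefore no separate observation. With the replicate block, 4, 3, 0, 0, 0, 4 and 2 members were called in the 7 comparisons, in the order of the ranges above, and 2971, 2997, 329, 45, 0, 4774 and 243 genes. The block ended the calls of Mdm4 (adjusted p = 0.0535) and Eif2ak3 (0.0538) for OBX in Lip-O mice, Trib3 (0.0706) for OBX in Lip-C mice, and Bad (0.0536) and Aifm1 (0.0508) for OBX averaged over liposomes, and changed no other call of a named gene.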
